A study of Mus musculus with 2 samples.

Results

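The Mir26 family of the mouse consists of the microRNA genes Mir26a-1, Mir26a-2 and Mir26b, and these 3 genes were followed among the 1973 microRNA genes counted in newborn heart. The members were chosen by name and not by a threshold on their values, with earlier results of these data known. All 3 were found in the deposited tables, and each had at least 10 counts in each library, the minimum used here for calling a gene detected. MicroRNA sequencing was carried out on single whole hearts of B6NCrl pups at postnatal day 0, from total RNA, with a size range under 30 nt. The labels give 1 group of 2 hearts, with replicate 1 from pup 1 and replicate 2 from pup 3 and 1 library per heart. No allele, treatment or second condition is named, so the values describe levels in the newborn heart and the one contrast is between the 2 hearts.

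A microRNA is cut from a hairpin precursor, and either arm of the hairpin, named 5p or 3p, can give a mature strand of about the length of the reads sequenced here. The mature strand guides Argonaute to messenger RNAs mainly by its seed, bases 2 to 8 from the 5′ end. The Mir26 genes lie in introns of the genes for small C-terminal domain phosphatases (Ctdsp1, Ctdsp2 and Ctdspl), enzymes that act on RNA polymerase II and on the retinoblastoma protein. The family is known to restrain cell cycle entry together with its host phosphatases, to repress Ezh2, a histone methyltransferase, and in the heart to repress the potassium channel gene Kcnj2.

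The mature sequences are shown because they decide which of the 3 genes a read can be assigned to. They were taken from RefSeq (build GRCm38.p6, the same assembly as mm10), 5′ to 3′, with the seed in capitals.
miR-26a-5p (Mir26a-1 and Mir26a-2): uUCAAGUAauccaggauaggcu
miR-26b-5p (Mir26b): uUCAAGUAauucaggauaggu
miR-26a-1-3p (Mir26a-1): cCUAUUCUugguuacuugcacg
miR-26a-2-3p (Mir26a-2): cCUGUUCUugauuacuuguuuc
miR-26b-3p (Mir26b): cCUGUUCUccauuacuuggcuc
The 5p sequences of all 3 genes carry the seed UCAAGUA. No other mature sequence in the RefSeq table has that seed, so the 3 genes are the whole seed family there. The 5p strand of both Mir26a genes is identical over its 22 nt. miR-26b-5p is 21 nt long and differs from miR-26a-5p at 2 of the 21 positions compared, C11U and C21U (miR-26a base first, positions from 1 at the 5′ end), both outside the seed. With only the first 6 seed bases required, 1 more gene, Mir6371, was found, and it had 0 counts in both libraries.

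The 3p strands told all 3 genes apart. miR-26a-1-3p and miR-26a-2-3p differed at 6 of 22 positions, and the change A4G lies in the seed. miR-26a-2-3p and miR-26b-3p shared the seed CUGUUCU and differed at 4 of 22 positions (U9C, G10C, U19G and U20C). That 3p seed also occurred in Mir6932 and Mir7039, whereas CUAUUCU of miR-26a-1-3p occurred in no other gene of the table.

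The precursors of the Mir26a genes are shown with the longest stretch they have in common in capitals, and that of Mir26b with the longest stretch it shares with either of them in capitals.
Mir26a-1: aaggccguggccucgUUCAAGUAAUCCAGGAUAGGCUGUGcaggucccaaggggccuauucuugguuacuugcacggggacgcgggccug
Mir26a-2: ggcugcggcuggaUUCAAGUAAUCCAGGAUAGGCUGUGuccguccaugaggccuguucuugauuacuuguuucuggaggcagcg
Mir26b: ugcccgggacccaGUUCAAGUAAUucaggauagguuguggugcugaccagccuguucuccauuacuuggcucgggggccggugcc
The Mir26a precursors, 90 and 84 nt long, share a run of 25 nt that holds the whole 5p strand and the 3 bases after it. The longest run Mir26b (85 nt) shares with Mir26a-1 is 11 nt, and with Mir26a-2 it is 10 nt. All windows of 18 nt within each precursor were then looked up in the 2202 microRNA precursors of GENCODE M21, on both strands. Of the 5 windows within miR-26a-5p, 0 were unique to one gene. In the 3p strands all 5 of 5 windows were unique in Mir26a-1 and in Mir26a-2, and every window of Mir26b, 68 of 68, was unique. The only precursor that shared windows with a Mir26a gene was the other Mir26a gene. The genome outside annotated precursors was not searched.

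**Figure D1:**
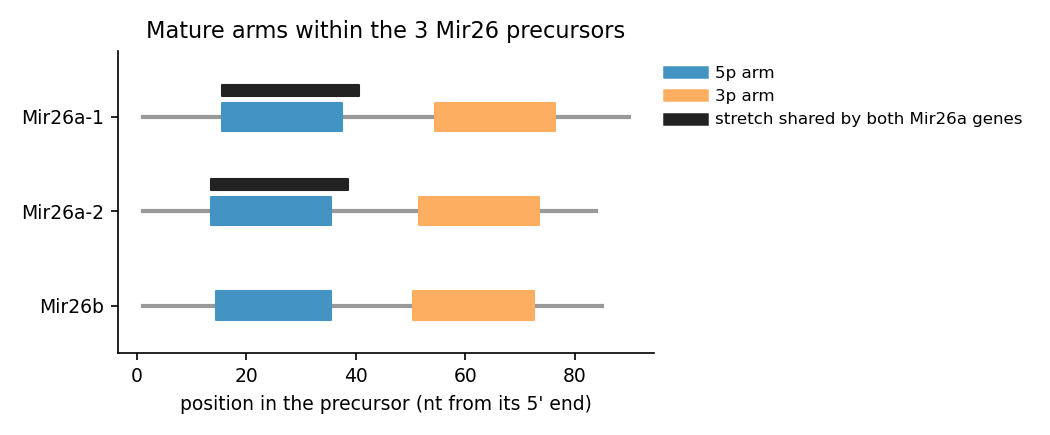
Map of the 3 precursors by position in nt from the 5′ end, with the 5p arm (blue), the 3p arm (orange) and the 25 nt stretch shared by the Mir26a genes (black bar). The shared stretch covers the whole 5p arm of both Mir26a genes and neither 3p arm, and Mir26b has no such stretch.

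The 3 genes also share their place in the host. Mir26a-1 (ENSMUSG00000065513.1) lies on chromosome 9 at 119031796 to 119031885 (plus strand, mm10), in intron 5 of the 8-exon transcript of Ctdspl and in intron 4 of its 7-exon transcript. Mir26a-2 (ENSMUSG00000065430.1) lies on chromosome 10 at 126995530 to 126995613 (plus strand), in intron 5 of the 8-exon transcript of Ctdsp2. Mir26b (ENSMUSG00000065468.1) lies on chromosome 1 at 74394310 to 74394394 (plus strand), in intron 4 of the 7-exon transcript of Ctdsp1. In every one of these transcripts 3 exons follow the intron, none of the microRNA genes overlaps an exon, and each is on the strand of its host. The introns differ in length, at 3283 nt in Ctdspl, 1946 nt in Ctdsp2 and 564 nt in Ctdsp1. The hosts differ more, at 117546, 21259 and 5777 nt. The gene with the most counts thus sits in the shortest host and the shortest intron, and a link between these lengths and the counts was not tested. The host messenger RNAs were not measured in these small RNA libraries.

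Sense counts over all microRNA genes came to 6373797 in replicate 1 and 7630427 in replicate 2. Levels are given as CPM, counts per 1000000 of that total, and 3 counts, the most that a count of 0 allows, correspond to 0.471 and 0.393 CPM. Intervals and this limit cover counting error only. The labelled tissue was checked against markers. Mir208a, Mir208b and Mir499, the microRNAs of cardiac myosin genes, summed to 122248 and 124984 CPM. Not all muscle microRNAs were high. Mir1a-1, Mir133a-1 and Mir133a-2 had means of only 8.89, 8.24 and 2.08 CPM, and why they were low was not tested. The skeletal muscle marker Mir206 was at 71.2 and 104 CPM. Of the 5 neuronal marker genes counted, 4 were at 0 and the fifth, Mir9-3, was at 0.941 and 0.917 CPM. All mature sequences of Mir9-2 and Mir9-3 also occur in other precursors, and reads with several matching places were not counted to a gene. For the Mir124a genes such sharing was not determined. Low counts of these genes therefore cannot show that neuronal RNA was absent. The liver marker Mir122 was at 35.8 and 44.6 CPM. Endothelial Mir126a, at 144115 and 122186 CPM, and smooth muscle Mir143 and Mir145a, at a sum of 94054 and 87684 CPM, were high. Markers of blood cells were found too, with erythroid Mir451a at 931 and 1237 CPM and Mir144 at 112 and 71.2 CPM. Leukocyte Mir223 was at 409 and 396 CPM. RNA of several cell types was therefore present. In such tissue fewer cells of a type and less microRNA per cell cannot be told apart.

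Mir26b was abundant and gave nearly all counts of the family. It had 187323 counts in replicate 1 and 232186 in replicate 2, or 29390 and 30429 CPM, with a mean of 29909 ± 735 CPM (SD, n = 2). As a share of the library this was 2.94% (exact Clopper-Pearson 95% interval 2.926 to 2.952) in replicate 1 and 3.04% (3.031 to 3.055) in replicate 2. Its rank among all genes was 10 in both hearts. Within the family it gave 99.78% of the counts in replicate 1 and 99.75% in replicate 2.

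Mir26a-2 was far lower, with 362 counts in replicate 1 and 499 in replicate 2. Its level was 56.8 CPM (exact 95% interval 51.1 to 63.0) and 65.4 CPM (59.8 to 71.4), a mean of 61.1 ± 6.08 CPM (SD, n = 2). It ranked 184 and 183 in the 2 hearts. Mir26a-1 was the lowest member, with 56 and 79 counts. Its level was 8.79 CPM (6.64 to 11.4) and 10.4 CPM (8.20 to 12.9), a mean of 9.57 ± 1.11 CPM (SD, n = 2), at ranks 260 and 256. The values of the 3 genes did not overlap, and both hearts gave the order Mir26b, Mir26a-2, Mir26a-1. The opposite strand of all 3 genes had 0 counts in both libraries.

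**Figure D2:**
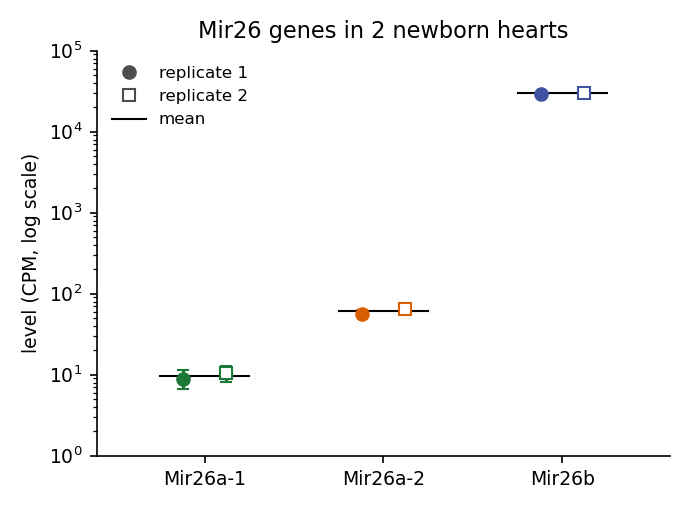
Level of each Mir26 gene in CPM on a log axis, with replicate 1 as filled circles, replicate 2 as open squares, the mean as a line and exact 95% counting intervals as bars (smaller than the symbols for Mir26b). The genes lie near 9.57, 61.1 and 29909 CPM, and the hearts differ little beside these gaps.

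In counts assigned to a gene, Mir26b exceeded Mir26a-2 by 517-fold in replicate 1 (exact 95% interval 467 to 575) and 465-fold in replicate 2 (426 to 509). It exceeded Mir26a-1 by 3345-fold (2576 to 4428) and 2939-fold (2358 to 3712). Mir26a-2 exceeded Mir26a-1 by 6.46-fold (4.87 to 8.73) and 6.32-fold (4.97 to 8.11), and the 5p strand is the same in both of these genes. All 6 tests against equal counts (3 pairs in 2 libraries) passed by 2-sided exact binomial tests, with the highest Benjamini-Hochberg adjusted p at 6.32e-56. A microRNA read comes from an arm and not from the whole precursor, so counts were not divided by length. When they were, the ratio of Mir26b to Mir26a-2 was 511 and 460, that of Mir26b to Mir26a-1 was 3542 and 3112, and that of Mir26a-2 to Mir26a-1 was 6.93 and 6.77.

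These ratios compare counts assigned to genes, not amounts of miR-26a and miR-26b. The tables give reads with several matching places in a row of their own, 4974412 in replicate 1 and 5980508 in replicate 2, or 35.9% and 34.6% of all reads. They outnumber all counts of the Mir26 family by 26.5-fold and 25.7-fold, and those of the Mir26a genes by 11901-fold and 10347-fold. The tables do not say which microRNAs those reads belong to, and the counts do not tell the 5p from the 3p arm. Their part in the gap between Mir26b and the Mir26a genes was not tested.

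The ratios within the family were close in the 2 hearts. The log2 ratio was 8.94 ± 0.108 for Mir26b over Mir26a-2, 11.60 ± 0.129 for Mir26b over Mir26a-1 and 2.67 ± 0.021 for Mir26a-2 over Mir26a-1 (SD, n = 2). Fisher's exact test of each pair by library gave adjusted p-values of 0.393, 0.734 and 0.926 over the 3 pairs. No ratio was therefore shown to differ between the hearts. With 56 and 79 counts of Mir26a-1 a modest difference in its ratios would not have been detectable at this depth.

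Next in the order of mean CPM, Mir26b lay below Mir99a (43001 ± 7160 CPM) and Mirlet7g (42351 ± 913) and above Mir23a (22850 ± 256) and Mir22 (22348 ± 611), and its 2 values overlapped with none of theirs. Mir26a-2 lay between Mir505 and Mir450-1, at 64.1 ± 17.2 and 63.2 ± 4.40 CPM, and Mir302a and Mir675, at 60.4 ± 1.82 and 59.1 ± 12.7 CPM. Mir26a-1 lay between Mir183 and Mir1930, at 9.88 ± 1.56 and 9.72 ± 1.34 CPM, and Mir5113 and Mir96, at 9.44 ± 2.03 and 9.16 ± 0.355 CPM. The values of the Mir26a genes overlapped with those of all these neighbours, so their places in the order are not distinguishable from them. Likeness here is distance in mean CPM over 2 libraries and nothing more.

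MicroRNA genes were then grouped by whether a mature sequence of theirs also occurs in another precursor. Mature sequences could be matched for 326 of the 358 detected genes, and Mir143, at 88252 CPM, was among those without a match. Of the 326, 282 had no mature sequence found in another annotated precursor, with a median of 69.7 CPM and a range of 1.44 to 133150. Another 37 shared some of their mature sequences, with a median of 61.1 CPM and a range of 2.29 to 2381, and 7 shared all of them, with a median of 39.7 CPM and a range of 2.44 to 336. Mir26b was in the first group and both Mir26a genes in the second, where Mir26a-2 ranked 19 and Mir26a-1 ranked 31 of 37. Mir1a-1, at 8.89 CPM, was in the first group although it is listed with Mir1a-2 as made from 2 genes. That group can therefore hold genes with a shared sequence. The medians lay close together, but 37 of the 282 genes without a shared sequence were above the highest gene with one, Mirlet7f-2, and Mir26b was among those 37. The medians cover detected genes only. Detected were 282 of 813 counted genes in the first group, 37 of 58 in the second and 7 of 45 in the third.

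**Figure D3:**
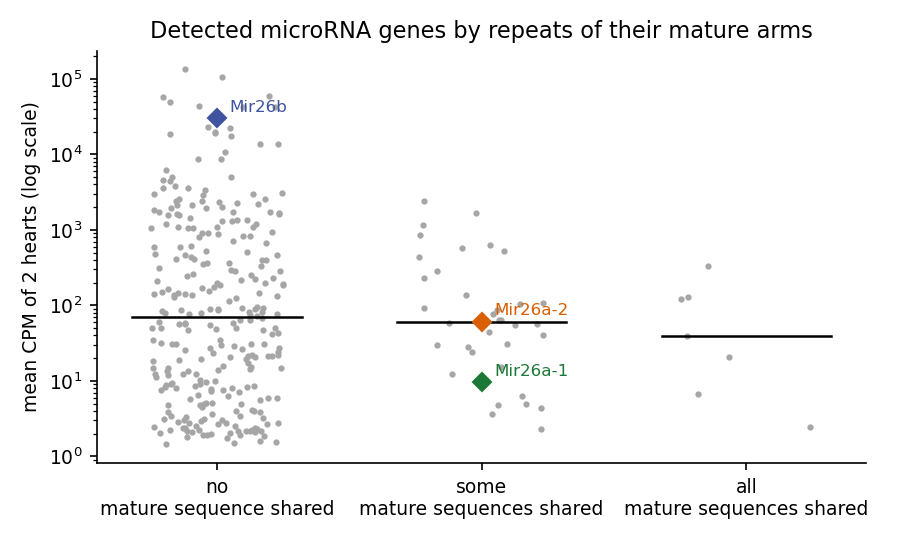
Mean CPM of 2 hearts on a log axis for 326 detected genes, grouped by whether none, some or all of their mature sequences occur in another precursor, with lines at the medians of 69.7, 61.1 and 39.7 CPM and the Mir26 genes as diamonds. Genes above 2381 CPM are found in the first group only, and Mir26b is one of them.

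The other microRNAs made from 2 genes can be set beside a relative with the same seed and no shared mature sequence. Mir107, in an intron of Pank1, had 5031 and 4864 CPM, while Mir103-2 in Pank2 had 24.3 and 35.6 and Mir103-1 in Pank3 had 3.29 and 4.06. Mir107 thus exceeded Mir103-2 by 207-fold and 136-fold and Mir103-1 by 1527-fold and 1197-fold. Mir30e exceeded Mir30c-1, which lies with it in Nfyc, by 429-fold and 503-fold, and Mir30c-2 by 793-fold and 749-fold. The Mir103 and Mir30c genes share a mature sequence with another gene, so their counts are uncertain as well. The Mir92 genes gave the opposite order. Mir92b, with no shared sequence, had 8.32 and 8.78 CPM, below Mir92-1 at 1146 and 1194 CPM and Mir92-2 at 26.0 and 29.7 CPM. Over the 18 microRNAs whose 2 genes were both detected, 11, miR-26a included, had such a relative detected among genes with matched mature sequences, in 29 comparisons. The relative was above both genes in 23 comparisons, between them in 4 and below both in 2, Mir92b and Mir363, with the same place in both hearts each time. In the 23, the fold over the higher gene varied widely. It ran from 1.28 (Mir181d over Mir181a-1) to 517 (Mir26b over Mir26a-2) in replicate 1. In replicate 2 it ran from 1.66 (Mir15a over Mir16-1) to 503 (Mir30e over Mir30c-1). All relatives surveyed were above both genes for 9 of the 11, and the Mir16 and Mir92 pairs were the exceptions. Genes without a matched mature sequence gave no comparison, so the survey is not complete. The Mir133a genes were among them. Mir133b of the same family, at 5.49 and 6.42 CPM, lay between Mir133a-1 (6.90 and 9.57) and Mir133a-2 (2.20 and 1.97). This survey was chosen after the values were seen, and the same relative can serve more than one microRNA, as in the let-7 family, so it is a description.

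Of 26 microRNAs listed as made from 2 genes, 22 had both genes counted and 18 had both detected. Over these 18 pairs the median log2 ratio of the higher to the lower gene was 1.94, and the Mir26a pair, at 2.67, ranked 7. The widest gaps were 6.33 for Mir181b and 5.39 for Mir92, and the narrowest was 0.11 for Mirlet7c. The same gene was the higher one in both hearts in 17 of the 18 pairs. The SD of the Mir26a ratio between hearts, 0.021, was the second lowest of the 18, against a median of 0.124 and a highest of 0.444. It rests on 2 values and on 56 and 79 counts of Mir26a-1. The counting intervals of that ratio, 4.87 to 8.73-fold and 4.97 to 8.11-fold, are far wider. The low SD is therefore not read as a trait of the pair. Among the 47 genes of the list that were counted, from Mirlet7f-2 at 2381 CPM down to Mir196a-1 at 0.0655 CPM, Mir26a-2 ranked 18 and Mir26a-1 ranked 31.

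**Figure D4:**
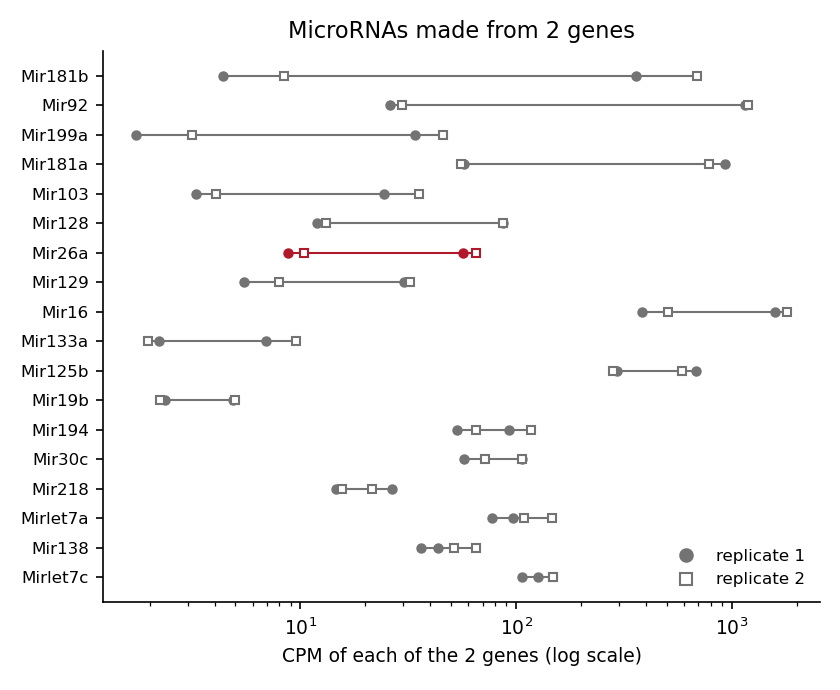
CPM on a log axis of both genes of 18 microRNAs made from 2 genes, with replicate 1 as filled circles, replicate 2 as open squares and pairs ordered by their ratio. The Mir26a pair (red) spans 8.79 to 65.4 CPM and ranks 7 of 18 by ratio.

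Between the 2 hearts the members differed little. Mir26b was 1.04-fold higher in replicate 2 (exact 95% interval 1.03 to 1.04), a log2 ratio of 0.05, and passed the 2-sided exact binomial test, in which the totals set the ratio tested against and the adjustment ran over the 435 genes with at least 10 counts (adjusted p = 5.2e-28). Mir26a-2 had a ratio of 1.15 (1.00 to 1.32; adjusted p = 0.126, same exact test) and Mir26a-1 one of 1.18 (0.826 to 1.69; adjusted p = 0.646, same exact test), and neither passed. All 3 members had more CPM in replicate 2, and 1 of 3 passed, beside 31.0% of all genes tested in either direction, 19.1% with the higher value in replicate 2 and 12.0% with the higher value in replicate 1. The test compares 2 libraries and counts sampling noise alone. With 1 library per heart a difference between animals and one between library preparations cannot be told apart. The call for Mir26b ended when a preset spread between hearts was allowed for, with adjusted p = 1 by the edgeR exact test at a biological coefficient of variation of 0.1 and of 0.2.

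Over all 435 genes the median log2 ratio was 0.02 and the median absolute log2 ratio was 0.21. The absolute ratio of Mir26b was thus below the median, and 69 genes had a lower one. The ratios of Mir26a-2 and Mir26a-1, at 0.20 and 0.23, lay near it. Among the genes ranked above Mir26b, the log2 ratio was -0.34 for Mir99a, -0.24 for Mir126a, 0.24 for Mir30e and -0.10 for Mir143. It was 0.09 for Mir208b, 0.08 for Mirlet7i, 0.07 for Mir335, 0.04 for Mirlet7g and 0.02 for Mir322. A small ratio was thus not particular to Mir26b.

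**Figure D5:**
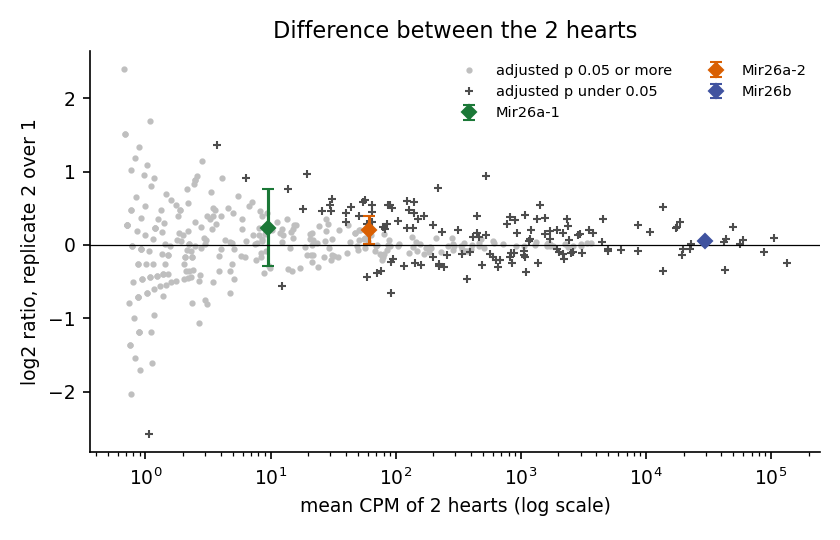
Log2 ratio of replicate 2 over replicate 1 against mean CPM (log axis) for 435 genes, with crosses for adjusted p under 0.05 by the exact binomial test and exact 95% intervals for the Mir26 genes. The interval narrows from Mir26a-1 (-0.28 to 0.76) to Mir26a-2 (0.01 to 0.40) and Mir26b (0.04 to 0.06).

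Beside the family, a list of microRNAs within protein-coding host genes had 35 of its 40 entries counted and all 35 detected. In GENCODE M21, 34 of the 35 lie within a protein-coding gene on their strand, and Mir425 does not. The median of the list was 1425 CPM, against 64.6 CPM over all 358 detected genes. Its highest members were Mir126a in Egfl7, Mir208b in Myh7 and Mir335 in Mest, at 133150, 104936 and 60101 CPM. The list was chosen by name, and 174 of the 358 detected genes lie within a host gene. Its median therefore does not stand for microRNAs within host genes in general. Of the 35, replicate 2 had the higher level of 14 and replicate 1 of 8, while 13 fell short of the threshold, beside 19.1% and 12.0% of all 435 genes, with a median log2 ratio of 0.04. Mir26b lies above the median of that list, and both Mir26a genes lie below it.

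MicroRNAs linked to restraint of the cell cycle, the role also ascribed to Mir26, had 26 of 31 entries counted and 25 detected, with a median of 582 CPM. The highest were Mir322 of the Mir15 family at 56684 ± 472 CPM, Mirlet7i at 43813 ± 1708 and Mirlet7g at 42351 ± 913, all above Mir26b. Past the threshold, replicate 2 had the higher level of 14 of the 26 and replicate 1 of 4, and 8 fell short, beside the same 19.1% and 12.0% of all genes, with a median log2 ratio of 0.04. In the list of microRNAs made from 2 genes, which holds the Mir26a genes, 43 genes were tested. Replicate 2 had the higher level of 17 and replicate 1 of 3, and 23 fell short, again beside 19.1% and 12.0% of all genes. By edgeR's exact test with a preset spread of 0.1, 1 of the 435 genes was called (0.230%), so nothing particular to a list is read from these counts. The median log2 ratio was 0.20, beside 0.20 and 0.23 for the Mir26a genes.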

How the data were processed

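Small RNA reads of 2 newborn hearts were analysed from the tables of counts the authors deposited, 1 per library. Build mm10 and GENCODE M4 were used by the authors, per the notes deposited beside each table. Not given in the sources used here: the aligner, the counter, trimming and versions. The tables have 3 columns of whole-number counts without header. From the values, they were read as both strands, the strand of the gene (used here, 92.9% and 92.8% of counts) and the opposite strand, since the first equals the sum of the others in every gene row. Rows that name no gene (unmapped 12.6% and 15.5% of reads, matching several places 35.9% and 34.6%, no gene 1.93% and 2.28%) were left out of totals. Of 1973 identifiers 1894 were named from GENCODE M21 on the same build, and the other 79 held 0 counts. RefSeq precursors matched 869 symbols.

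CPM used the sense total. Genes with 10 or more counts in both libraries were called detected. Log2 ratios used 0.5 added counts. Exact binomial and Fisher's exact tests were used, with p-values adjusted by Benjamini-Hochberg and called under 0.05. The test between hearts was checked on simulated data. Members, lists and tests were chosen with earlier results of these data known. Named genes were the members, the 2 genes on either side of each in mean CPM, seed relatives, the highest members of each list, and the Mir30c and Mir103 genes with Mir30e and Mir107. Alternatives were both strands, other scalings, pseudocounts and count minimums, each library alone, and edgeR exact tests with a preset spread. Division by precursor length was added after seeing the data. Tools were SciPy 1.17.1, NumPy 2.4.6 and pandas 2.3.3 under Python 3.11.15, with plots by matplotlib 3.10.9, and edgeR 4.0.16 and DESeq2 1.42.0 (for its size factors) under R 4.3.3.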

Additional observations from a re-analysis of the deposited data

How the results depend on the processing

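The order Mir26b, Mir26a-2, Mir26a-1 held in 18 of 18 values. The settings were both strands, pseudocounts of 1 and 5, division by precursor length and each library alone. None of them assigns reads with several matching places to a gene, so the order concerns counts assigned to genes only. The opposite strand held 0 counts, so the counts of both strands were the same ones. Pseudocounts and length do not enter the exact test, which was not rerun under them. Each library alone had its own test, and all 3 ratios passed in each. Levels scale with the total used. Without the most abundant gene, Mir126a, in the total they were 11.0, 70.4 and 34501 CPM for Mir26a-1, Mir26a-2 and Mir26b, and per 1000000 of all reads they were 4.31, 27.5 and 13483. With the totals of both strands Mir26b was at 27760 CPM. From one heart alone the levels ranged from 8.79 to 10.4, 56.8 to 65.4 and 29390 to 30429 CPM. The log2 ratio of Mir26b between hearts stayed at 0.05 by edgeR's exact test with preset spreads of 0.1 and 0.2, but did not pass (adjusted p = 1 in both), and it was 0.01 (adjusted p = 0.00875, exact binomial test) with the total that leaves out Mir126a. Of all genes 135 passed between hearts by the exact binomial test, 129 to 146 under the other scalings, strands and count minimums, 1 by edgeR's exact test with a preset spread of 0.1 (29 at an unadjusted p under 0.05) and 0 at 0.2 (4 unadjusted). The spread estimated from these libraries was 0.114. No paired analysis was possible because the labels give 1 group. The depth limits Mir26a-1 most, at 56 and 79 counts.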
